A study of Mus musculus with 2 samples.

Results

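The genes described here are 10 members of the tumor necrosis factor (TNF) superfamily of ligands and receptors, 5 receptors (*Tnfrsf4*, *Tnfrsf9*, *Tnfrsf18*, *Tnfrsf1b* and *Cd27*) and 5 ligands (*Tnf*, *Lta*, *Ltb*, *Cd40lg* and *Tnfsf8*). They were taken by name from 19938 genes measured on microarrays of CD4+ T cells, and all 10 were measured, each by a single probe set. The samples were live CD3+CD4+ T cells sorted from the pancreatic lymph nodes (PLN) of 8-week-old BDC mice, NOD mice whose T cells carry a transgenic T cell receptor (TCR) specific for a β cell antigen. Mice received isotype control antibody (Ab; clone 2A3) or nondepleting αCD4 (ND αCD4; clone YTS177), at 1 mg per the labels, and cells were taken 48 hours later. PLN of 3 mice were pooled for sorting, and there is 1 array for each condition. No difference below could therefore be tested or checked in a replicate, and precision is limited by the number of arrays.

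TNF superfamily ligands bind receptors on neighboring lymphocytes and antigen-presenting cells. The receptors recruit TRAF adaptor proteins and activate NF-κB, which sustains the survival and cytokine output of T cells that have already received a TCR signal. Some members are induced by TCR stimulation, whereas others, such as *Cd27*, are present on resting T cells. Several of the member receptors are also abundant on regulatory T cells (Tregs). The comparison asks how the mRNA of this family stood in diabetogenic CD4+ T cells after the antibody bound their coreceptor.

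The members lie in groups on the chromosomes of the RefSeq mouse genome. *Ltb*, *Tnf* and *Lta* follow each other on chromosome 17 with no other protein-coding gene between them, *Tnfrsf4* and *Tnfrsf18* are adjacent on chromosome 4, and *Tnfrsf1b* stands next to *Tnfrsf8*, the gene of CD30, also on chromosome 4. Of the 10 members, 5 are on chromosome 4. To set a member with a lower signal beside one near 0 on the same chromosome, the promoters of *Tnf* and the adjacent *Ltb* are shown for chromosome 17, and those of *Tnfrsf9* and *Tnfrsf18*, which are not adjacent, for chromosome 4. These are the 250 bases before the start of each gene (RefSeq, GRCm38.p6), written 5′ to 3′ along the gene, with the core GGAAA of the sites of NFAT, a transcription factor activated by TCR signals, in capitals on either strand (TTTCC on the other strand).
Tnf (chr17:35202008-35202257, minus strand): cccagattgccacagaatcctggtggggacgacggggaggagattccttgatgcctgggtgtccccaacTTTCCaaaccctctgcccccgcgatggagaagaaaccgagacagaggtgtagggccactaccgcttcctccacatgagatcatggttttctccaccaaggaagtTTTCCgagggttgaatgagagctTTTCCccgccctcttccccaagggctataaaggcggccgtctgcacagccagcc
Ltb (chr17:35194257-35194506, plus strand): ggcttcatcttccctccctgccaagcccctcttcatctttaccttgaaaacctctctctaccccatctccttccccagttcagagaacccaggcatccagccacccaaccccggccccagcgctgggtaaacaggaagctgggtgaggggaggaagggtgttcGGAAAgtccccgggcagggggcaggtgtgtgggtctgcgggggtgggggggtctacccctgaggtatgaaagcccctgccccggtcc
Tnfrsf9 (chr4:150919905-150920154, plus strand): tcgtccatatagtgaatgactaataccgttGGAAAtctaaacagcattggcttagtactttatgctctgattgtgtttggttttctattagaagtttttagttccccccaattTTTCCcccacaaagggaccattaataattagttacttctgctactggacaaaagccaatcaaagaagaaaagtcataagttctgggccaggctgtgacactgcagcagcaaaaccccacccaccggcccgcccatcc
Tnfrsf18 (chr4:156026072-156026321, plus strand): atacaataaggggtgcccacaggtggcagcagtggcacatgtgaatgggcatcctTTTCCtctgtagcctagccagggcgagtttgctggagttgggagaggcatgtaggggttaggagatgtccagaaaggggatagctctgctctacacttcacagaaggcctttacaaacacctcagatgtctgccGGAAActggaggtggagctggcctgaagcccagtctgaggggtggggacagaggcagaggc

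*Tnf* held 3 such cores in this window, *Tnfrsf9* 2, *Tnfrsf18* 2 and *Ltb* 1. A second start of *Tnfrsf9*, inside the gene, has a window of its own that is not printed and held 3. Of the members not printed, *Lta* held 2, *Tnfrsf4*, *Cd27* and *Tnfsf8* 1 each and *Tnfrsf1b* 0, and no window was available for *Cd40lg*. The windows of *Lta*, *Tnfrsf4*, *Cd27* and *Tnfsf8* lie at least partly inside the annotated gene, unlike the printed ones. Whether the number of cores goes with the log2 ratios across the members was not tested. Each member with a window except *Tnfrsf1b* held at least 1 core. Over all 32851 RefSeq promoter starts, a core was present in 55.6% of the windows of this length. The members were not tested against that share, and a match is not evidence of binding.

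Values are log2 array signals, and a difference is a log2 ratio, ND αCD4 minus isotype control. Where a pair of signals is given, isotype control comes first. Background was set in each array at the 95th percentile of the probe sets of smell and pheromone receptors (olfactory and vomeronasal), at 7.64 with isotype control and 7.56 with ND αCD4, and genes above it in either array count as detected. All 10 members exceeded this level in both arrays, by 1.91 (*Lta*, ND αCD4) to 5.19 (*Ltb*, ND αCD4) on the log2 scale. Signals of different genes come from different probes and are not compared with each other. For scale, the middle 50% of the 13222 detected genes had log2 ratios from -0.10 to 0.07 with a median of -0.01, and the SD of the log2 ratio between probe sets of the same gene was 0.0929 (550 genes), which does not cover differences between mice. Genes are called higher or lower where they differ by 1.5-fold or more. By that rule 133 detected genes (1.01%) were lower and 28 (0.212%) were higher, and 0 of the 10 members were lower and 0 higher.

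No member reached 1.5-fold. Log2 ratios below 0 were found for 5 of them, *Tnf*, *Tnfrsf9*, *Lta*, *Tnfrsf1b* and *Tnfrsf4*, from -0.22 to -0.52. The other 5, *Tnfrsf18*, *Tnfsf8*, *Cd27*, *Ltb* and *Cd40lg*, had log2 ratios from 0.02 to 0.22, and those of *Tnfrsf18*, *Tnfsf8*, *Cd27* and *Ltb* were smaller than the SD between probe sets of a gene. Over all detected genes, 52.7% were below 0 and 46.7% above 0, so the division of the members by sign was close to that of all genes. The median over the 10 was -0.10, against -0.01 over all detected genes. In a pool of cells, fewer cells of a type and less mRNA per cell cannot be told apart.

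**Figure D1:**
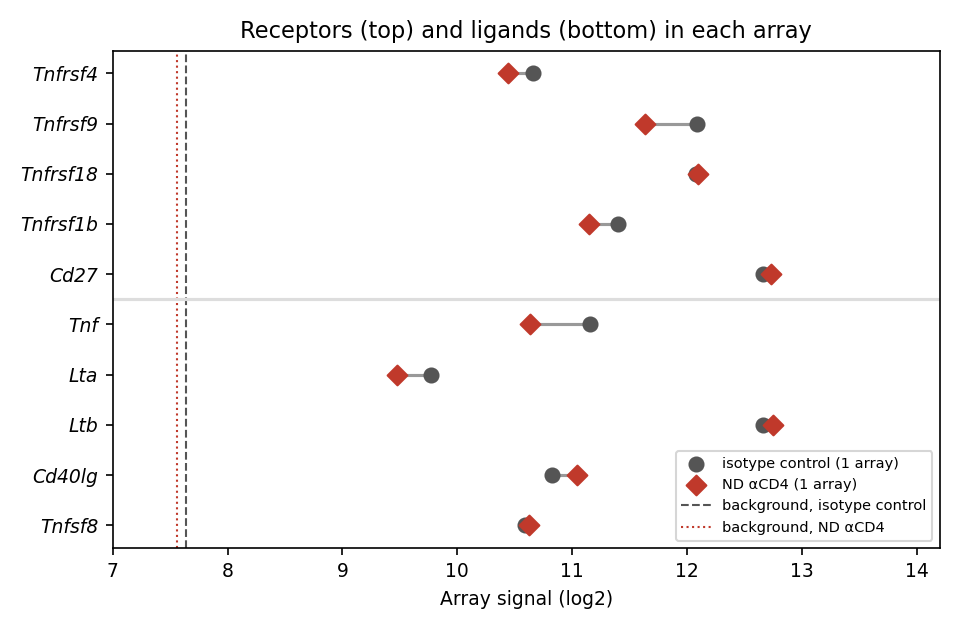
Array signal (log2, horizontal axis) of the 5 receptors and the 5 ligands in the isotype control array (gray circles) and the ND αCD4 array (red diamonds), 1 array each, each gene's values joined by a line, with dashed and dotted lines at the background level of each array. *Tnf* goes from 11.16 to 10.63 and *Cd40lg* from 10.82 to 11.04, and no signal is near background.

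Among the receptors, *Tnfrsf9*, which encodes the costimulatory receptor 4-1BB, differed the most. Its signal was 12.09 with isotype control and 11.63 with ND αCD4. This is a 1.37-fold lower level (log2 ratio -0.46), and 1.69% of detected genes had a log2 ratio as low or lower. *Tnfrsf1b*, the gene of TNF receptor 2, through which TNF costimulates T cells, had a signal of 11.40 with isotype control and 11.14 with ND αCD4. Its level was 1.19-fold lower (log2 ratio -0.25), and 6.47% of detected genes had a ratio as low or lower. *Tnfrsf4* encodes OX40, a receptor that prolongs the survival of activated CD4+ T cells. Its signal was 10.66 with isotype control and 10.44 with ND αCD4, 1.17-fold lower (log2 ratio -0.22), at a rank of 8.40% from the lowest. The ratio of each of these 3 receptors was larger in size than the SD between probe sets of a gene, but so were those of many genes. The SD of the log2 ratio over all detected genes was 0.173. Of detected genes, 2.13% were as far from 0 in either direction as *Tnfrsf9*, 9.64% as *Tnfrsf1b* and 12.9% as *Tnfrsf4*.

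The other 2 receptors had nearly equal signals in both arrays. *Tnfrsf18*, which encodes GITR, a receptor of activated T cells and Tregs, had a signal of 12.08 with isotype control and 12.09 with ND αCD4 (log2 ratio 0.02). *Cd27*, the receptor of CD70 on resting T cells, had a signal of 12.67 and 12.73 in the same order (log2 ratio 0.06). Both differences were smaller than the SD between probe sets of a gene. *Tnfrsf4* and *Tnfrsf18*, which are adjacent on chromosome 4, thus had log2 ratios of -0.22 and 0.02. Over the 5 receptors the median log2 ratio was -0.22, with 3 below 0 and 2 above 0.

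Among the ligands, *Tnf*, which encodes the inflammatory cytokine TNF-α, had the lowest log2 ratio of all 10 members. Its signal was 11.16 with isotype control and 10.63 with ND αCD4, so that the ND αCD4 array held 69.7% of the isotype control signal (1.43-fold lower, log2 ratio -0.52). A ratio this low or lower was found for 166 of the detected genes (1.26%). *Lta* encodes lymphotoxin α, which is secreted or forms a membrane complex with lymphotoxin β. Its signal was 9.78 with isotype control and 9.48 with ND αCD4, 1.23-fold lower (log2 ratio -0.30), and 4.47% of detected genes had a ratio as low or lower. *Ltb*, the gene of lymphotoxin β, had a signal of 12.67 with isotype control and 12.75 with ND αCD4, a log2 ratio of 0.08 that was smaller than the SD between probe sets. The 3 adjacent genes of chromosome 17 therefore lay at -0.52, -0.30 and 0.08.

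*Cd40lg* encodes CD40 ligand, with which helper T cells activate B cells and dendritic cells. It had the highest log2 ratio of the 10 members. The signal was 10.82 with isotype control and 11.04 with ND αCD4, 1.16-fold higher (log2 ratio 0.22), and 4.62% of detected genes had a ratio as high or higher. *Tnfsf8*, the gene of CD30 ligand, had a signal of 10.59 with isotype control and 10.62 with ND αCD4 (log2 ratio 0.03). The median over the 5 ligands was 0.03, with 2 below 0 and 3 above 0.

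**Figure D2:**
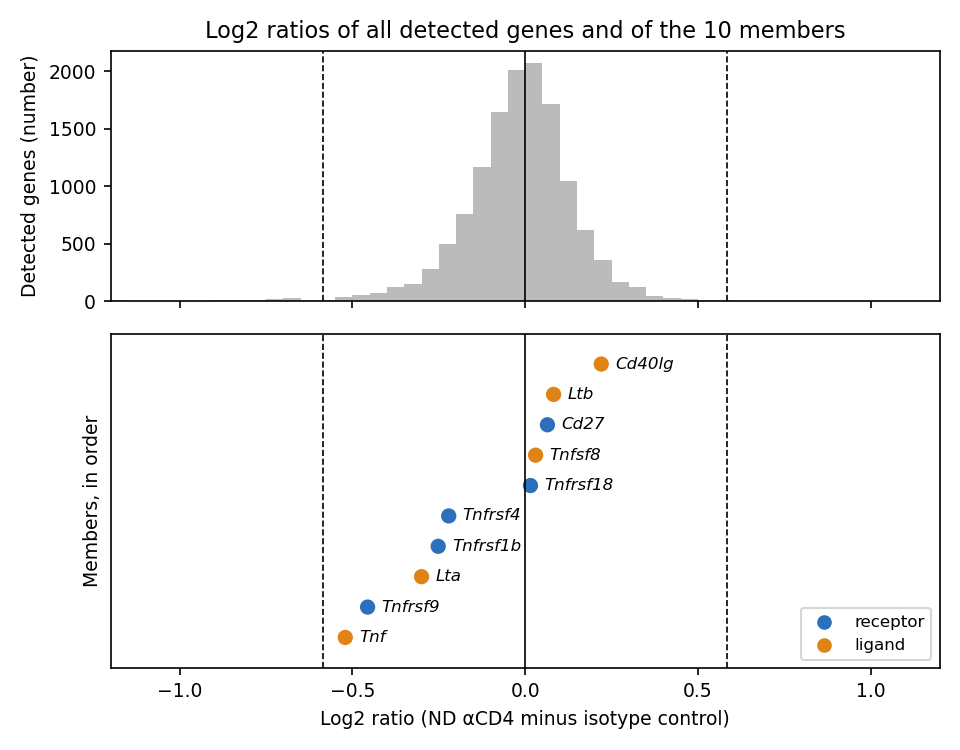
Upper panel, number of detected genes (vertical axis) by log2 ratio of ND αCD4 minus isotype control (horizontal axis), with genes beyond the ends of the axis counted in the outermost bars. Lower panel, the 10 members in order of their log2 ratio on the same axis, receptors in blue and ligands in orange, with 0 as a solid line and 1.5-fold as dashed lines. *Tnf* (-0.52) and *Tnfrsf9* (-0.46) lie nearest to the lower dashed line and *Cd40lg* (0.22) is the highest member.

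Because no member passed 1.5-fold, a smaller limit was also applied, a log2 ratio of 0.32 or more in size. By this limit, 2 of the 10 members were lower, *Tnf* and *Tnfrsf9*, and 0 were higher. Over all detected genes, 514 (3.89%) were lower by this limit and 199 (1.51%) higher. *Lta*, at -0.30, did not reach it.

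The known binding partners of the members were read from the same arrays, where they show only what the sorted T cells expressed. Ligands of the member receptors that are chiefly made by antigen-presenting cells were near or below background. *Tnfsf9*, the ligand of 4-1BB, *Tnfsf18*, the ligand of GITR, and *Cd70*, the ligand of CD27, did not exceed background in either array. *Tnfsf4*, the ligand of OX40, exceeded it with isotype control (7.74) and not with ND αCD4 (7.40), a level at least 1.13-fold lower.

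Receptors for the member ligands were detected in all cases. *Tnfrsf8* encodes CD30, the receptor of the *Tnfsf8* product, and is induced on activated T cells. Its signal was 8.77 with isotype control and 8.31 with ND αCD4, 1.38-fold lower (log2 ratio -0.47), beside 0.03 for *Tnfsf8* and -0.25 for its chromosomal neighbor *Tnfrsf1b*. *Tnfrsf1a*, the gene of TNF receptor 1, which binds TNF-α and lymphotoxin α, had a log2 ratio of 0.08 (10.65 and 10.73), beside -0.25 for *Tnfrsf1b*. *Ltbr*, the lymphotoxin β receptor, which is made mostly by stromal and myeloid cells, had low signals of 8.45 and 8.62 (log2 ratio 0.17), and *Cd40*, a receptor of B cells and dendritic cells, had 8.27 and 8.28 (log2 ratio 0.00).

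Of the rest of the family, 36 genes were listed, 34 had a probe set of their own and 27 were detected. None reached 1.5-fold in either direction, 15 had a log2 ratio below 0 and 12 above 0, and the median was -0.03. Of the 7 other ligands detected, 5 were below 0, with a median of -0.07. *Tnfsf11*, which encodes RANKL, had a log2 ratio of -0.34 (10.74 with isotype control and 10.39 with ND αCD4), and *Tnfsf14*, which encodes LIGHT, a ligand of HVEM and of the lymphotoxin β receptor, had -0.30 (9.60 and 9.29). *Tnfsf15* exceeded background only after ND αCD4, by so little that its level was at least 1.01-fold higher. *Tnfsf11* and *Tnfsf14* thus lay on the side of *Tnf* (-0.52) and *Lta* (-0.30). The ligand genes *Fasl* (-0.03), *Tnfsf8* (0.03) and *Cd40lg* (0.22) lay near or above 0.

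Of the 20 other receptors detected, 10 were below 0 and 10 above 0, with a median of -0.01. Besides *Tnfrsf8*, the ones farthest from 0 were *Tnfrsf12a*, the receptor of TWEAK, at 0.25 (9.04 and 9.29), *Tnfrsf21*, which encodes death receptor 6, at -0.25 (7.92 and 7.67), and *Tnfrsf10b*, the mouse TRAIL receptor, at -0.24 (8.90 and 8.66). By the smaller limit of 0.32, 3 of the 27 other family genes were lower and 0 higher, and the 3 were *Tnfrsf8*, *Tnfsf11* and, by its measured values, *Tnfsf4*.

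Downstream of the receptors, the adaptors and proximal signalling genes had a median log2 ratio of 0.02. Of 16 detected, 6 were below 0 and 10 above 0, and 0 reached 0.32 in size in either direction. *Traf5* had a log2 ratio of 0.21 (10.72 and 10.93), *Traf4* 0.19 (10.43 and 10.62) and *Ikbkb*, a kinase that releases NF-κB, 0.14 (11.33 and 11.47). *Tank*, a TRAF-binding regulator, had the lowest ratio at -0.16 (11.91 and 11.76).

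Genes known as NF-κB targets were mostly on the lower side by small amounts. Of 11 detected, 10 had a log2 ratio below 0 (9 under each other scaling) and 1 above 0, against 52.7% below 0 over all detected genes, and the median was -0.16. None reached 1.5-fold, and 1 of 11 was lower by 0.32 or more. That gene was *Bcl2l1*, which encodes the survival protein Bcl-xL, at 9.76 with isotype control and 9.41 with ND αCD4 (log2 ratio -0.35). *Nfkb2* had a log2 ratio of -0.28 (10.98 and 10.70), *Relb* of -0.25 (9.49 and 9.25) and *Nfkbia*, an inhibitor of NF-κB that NF-κB itself induces, of -0.21 (12.67 and 12.46). Many of these genes also respond to TCR signals without a TNF receptor. Each gene was placed in a single list, so any NF-κB target among the adaptors or the members is not counted here. How far the difference between the targets and the adaptors depends on that placement was not tested.

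**Figure D3:**
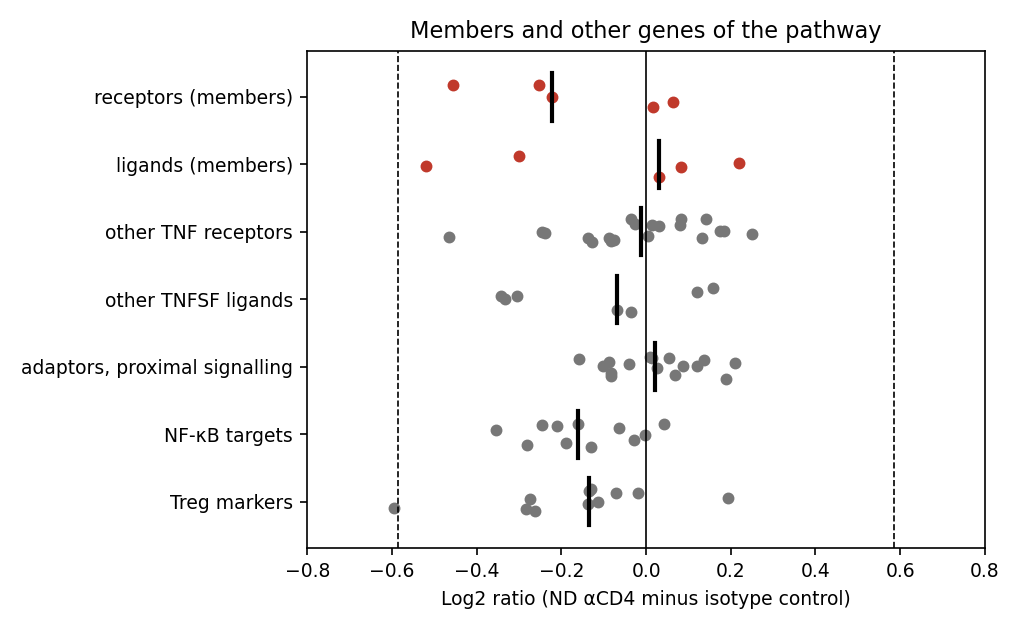
Log2 ratio of ND αCD4 minus isotype control (horizontal axis) of each detected gene, by list, with members in red and other genes in gray. Vertical bars are list medians, the solid line is 0 and dashed lines are at 1.5-fold, and points are scattered vertically only to separate them. The NF-κB targets have their median at -0.16 and the adaptors at 0.02, and the gene past 1.5-fold is *Il2ra*, among the Treg markers, which fell short of it under each other scaling.

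Other cell types in the pools were read from their markers. The T cell markers had a median log2 ratio of 0.03 over 8 genes, with signals of 13.76 and 13.78 for *Cd3e* and 13.38 and 13.48 for *Cd4*, as the sort label requires. Of the Treg markers, members left out, 1 of 11 was at least 1.5-fold lower as deposited (*Il2ra*) and 0 under each other scaling. Of the 11 detected, 10 had a log2 ratio below 0 and 1 (*Ctla4*) above 0, the median was -0.13, and their summed linear signal was 22307 with isotype control and 19513 with ND αCD4. *Il2ra*, which conventional T cells also induce on activation, was 1.51-fold lower (log2 ratio -0.59, and -0.58, short of 1.5-fold, when centred on the median, as also under lowess at -0.58 and quantile normalization at -0.57). The next lowest were *Ikzf2* (-0.28), *Icos* (-0.27) and *Gpr83* (-0.26), and *Ctla4* was at 0.19. *Foxp3*, the defining factor of Tregs, had signals of 10.46 and 10.39 (log2 ratio -0.07). The Treg receptor gene *Tnfrsf18*, a member and not among the 11, had a log2 ratio of 0.02. The part of Tregs in the log2 ratios of *Tnfrsf9*, *Tnfrsf1b* and *Tnfrsf4*, none of which reached 1.5-fold, was not tested.

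Some markers of CD8 T cells and of red blood cells had a higher signal in the ND αCD4 pool. *Cd8a* was 1.65-fold higher and *Cd8b1* had a log2 ratio of 0.45, with a summed signal of 3478 and 4984, and the probe sets shared by several globin genes were 2.21-fold to 2.54-fold higher. *Alas2*, the red blood cell marker with a probe set of its own, had signals of 7.46 and 7.74, with only the latter above background, a level at least 1.07-fold higher. Of 5 natural killer cell markers 1 exceeded background, *Klrd1*, and only after ND αCD4 (a level at least 1.46-fold higher), while *Ncr1* and *Klrb1c* did not. All 5 had a log2 ratio above 0, and their summed signal was 417 and 623. Of 6 B cell markers 5 were detected, and the summed signal of the 6 was 2411 and 2605. Of 6 markers each of macrophages and dendritic cells, 3 and 2 were detected, with *Csf1r* below background in both arrays, and the summed signals were 1411 and 1534 for macrophages and 1067 and 1050 for dendritic cells. Of 5 neutrophil markers 2 were detected, and the summed signals of neutrophils (681 and 671) and of stromal and endothelial cells (5548 and 5721) differed little. The part of these cells in the members' ratios was not tested.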

How the data were processed

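Gene expression was measured in 2 pools of sorted PLN CD4+ T cells, 1 array for isotype control Ab and 1 for ND αCD4, grouped by the sample labels. The deposited values are log2 signals made by the authors for 35557 probe sets in each array. They were made with Affymetrix Expression Console, per the submitters' processing notes, with a normalization not given in the sources, so how far it equalized the arrays is unknown. The log2 scale was inferred from the range (2.52 to 14.7) and the near-equal medians (8.15 in both). The paper names a later array version than the probe set identifiers.

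Of all probe sets, 21789 had 1 symbol in the platform annotation, 1621 several and 12147 none, and only the first were named. By gene identifier, 21698 matched the RefSeq table (GRCm38.p6), with 0 symbols changed. The probe set with the highest mean represented each gene. A gene above background in only 1 array was given a bound against the background level of the other. With 1 array per condition no test was run. The members and lists were chosen with earlier results of these data known. The text names all members, their binding partners and, in each other list, the detected genes farthest from 0 (up to 4), and marker genes as needed. *Il2ra*, *Ctla4*, *Ikzf2*, *Icos* and *Gpr83* were named after their values were seen. Listed genes with no probe set of their own enter no list count, and probe sets they share with other genes are given as shared. Alternatives were median centring, lowess (fraction 0.3, 3 iterations), quantile normalization, flooring at background, no filter, detection in both arrays, the mean of probe sets, and size limits of 0.32 (log2) and 2-fold. The calculations were checked on simulated data. Software was Python 3.11.15 with matplotlib 3.10.9, statsmodels 0.14.6, pandas 2.3.3 and numpy 2.4.6.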

Additional observations from a re-analysis of the deposited data

Results flagged for a closer look

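Probe sets that match several globin genes were left out of the named genes, yet their signal was above that of the isotype control array. Both probe sets of the α globin genes were higher after ND αCD4, by 2.23-fold and 2.21-fold. Both probe sets of the β globin genes were also higher, by 2.46-fold and 2.54-fold. Their log2 signals were 9.72 to 10.04 in the isotype control array and 10.86 to 11.26 in the ND αCD4 array. The part of red blood cell RNA in the members' ratios was not tested.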

How the results depend on the processing

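No member changed the sign of its log2 ratio under centring, lowess, quantile normalization, flooring, no filter, detection in both arrays or the mean of probe sets, and the largest shift was 0.03. The last 4 of these could not move the members, which have 1 probe set each and exceed background in both arrays. *Tnf* ranged from -0.52 to -0.51 and *Tnfrsf9* from -0.46 to -0.44, so neither reached 1.5-fold under any of them. Flooring, the filter changes and the mean of probe sets also could not move other genes with 1 probe set and signal above background in both arrays. Of 229 recomputed log2 ratios and medians, many of them thus fixed in advance, 227 moved by less than the SD between probe sets. The other 2 were *Tnfsf4*, at -0.17, and *Tnfsf15*, at 0.02, both when floored at background. With a limit of 0.32 on the log2 scale, 2 members were lower, and 199 detected genes were higher and 514 lower. At 2-fold, 2 detected genes were higher and 25 lower. An alternative for linear values was not run, since the values are on a log scale. No paired analysis was possible because each condition has 1 array. The number of arrays limits every value, and *Tnfsf4* and *Tnfsf15* are limited by signal close to background.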

Other observations

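The 3 probe sets shared by the *Bcl2a1* paralogs, survival genes of the Bcl2 family that NF-κB is known to induce, had log2 ratios of -0.34, -0.34 and -0.33, with signals of 10.27 to 10.56 in the isotype control array and 9.94 to 10.23 in the ND αCD4 array. The paralogs share these probe sets, so which of them the signal comes from cannot be told, and the 3 values are not independent. They lay close to *Bcl2l1*, at -0.35.

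A probe set shared by *Tnfsf12* and *Tnfsf13*, the genes of the ligands TWEAK and APRIL, had signals of 7.78 and 7.88, close to background, and a log2 ratio of 0.09. *Fas*, the gene of the death receptor through which activated T cells are removed, had signals of 9.68 and 9.65, and its ligand gene *Fasl* had 8.44 and 8.41, so both had log2 ratios of -0.03.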
